A study of Mus musculus with 8 samples.

Results

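The effect of losing the cytokine signalling inhibitor CIS was examined in natural killer (NK) cells taken directly from mice, by setting the 2 ex vivo CIS-/- RNA sequencing libraries against the 2 ex vivo wild-type libraries. These are 4 of the 8 libraries of the study, whose other 4 hold wild-type and CIS-/- NK cells grown in vitro, again 2 of each. All genes with enough counts were tested, which was 13184 of the 27179 genes in the count table. Both ex vivo groups came from C57BL/6 mice, and the source of each library is given as the spleen, bone marrow and blood together. The genotype, wild type or CIS-/-, was the only labelled difference between them. The labels give no age, sex, kind of CIS allele or number of mice. Whether the replicates are separate animals is not stated either, so the p-values measure only the spread between these libraries, which may be technical. Cells were selected by magnetic beads against CD49b (DX5), an integrin subunit that NK cells share with basophils, platelets and some T cells. Such a selection enriches NK cells without making them pure, so the results are ordered as the targeted gene, the genes that passed the test, the NK gene programmes and then the transcripts of other cell types.

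NK cells depend on interleukin 15, which acts through a receptor of IL2RB and the common gamma chain, the kinases JAK1 and JAK3, and the transcription factor STAT5. CIS, the protein of the Cish gene, belongs to the SOCS family: STAT5 switches the gene on after cytokine stimulation, and the protein then binds the receptor complex and lowers JAK1 activity. CIS is therefore known as a feedback brake on the response of NK cells to interleukin 15.

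The start of Cish is shown because it carries the sequence pattern that STAT5 recognises. In the RefSeq promoter table of build GRCm38.p6, the gene starts at position 107296659 of chromosome 9, on the plus strand. The stretch below is chr9:107296654-107296683, which spans that start; capitals mark the matches to TTCNNNGAA, a palindrome, so a match counts for both strands.
Cish: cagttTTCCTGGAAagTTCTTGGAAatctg
Within this stretch the 2 matches did not overlap and stood 2 bases apart. Of 32851 promoter windows of 300 bases, from 250 before to 50 after a gene start, 8.3% held the pattern at least once and 0.457% held it 2 times or more. Windows were found for 4 of the 8 genes called below, and those of Cxcr6, Sdc4 and Xist held no match. A match is a description of letters and was not tested as a binding site.

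The ex vivo libraries held 21485710 to 24889532 counted reads. Their values are given as CPM, the usual unit of counts relative to the total of a library, here after scaling between libraries. Wild-type replicates were closer to each other than CIS-/- replicates: the chi-square per degree of freedom between replicates, which is about 1 for pure counting noise, was 5.96 in wild type and 34.2 in CIS-/-. On the first principal component of the ex vivo libraries, with 49.3% of the variance, CIS-/- replicate 1 stood at 40.1 and the other 3 libraries between -18.3 and -10.6. On the second, with 32.8%, the wild-type libraries stood at 19.1 and 10.3, CIS-/- replicate 1 at 1.77 and CIS-/- replicate 2 at -31.2. The first component thus set 1 library apart, and the second put both CIS-/- libraries below both wild-type ones.

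Cish, the targeted gene, was at 9.26 and 9.12 CPM in the wild-type libraries and at 1.29 and 2.64 CPM in the CIS-/- libraries. Both CIS-/- libraries lay below both wild-type libraries, and reads were still counted for the gene in each. The log2 fold change was -2.20 (SE 0.250, 2 libraries a group), with an adjusted p of 0.0315 by edgeR's quasi-likelihood test with Benjamini-Hochberg adjustment. Cish was a weakly detected gene in these resting cells: cultured wild-type NK cells held 219.8 and 201.9 CPM. The count table holds 1 value per gene, so which part of the gene the remaining reads come from was not analysed here.

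Across all genes, 8 passed an adjusted p of 0.05, 0.0607% of those tested, with 4 higher in CIS-/- cells (0.0303%) and 4 lower (0.0303%). The median log2 fold change over all 13184 genes was 0.02. At an unadjusted p under 0.05 stood 844 genes, 6.4% of those tested (3.08% higher in CIS-/- cells and 3.32% lower). The groups of 2 did not overlap for 5317 genes (40.3%; 22% higher and 18.4% lower), so non-overlap alone says little in this design. For 10299 genes, 78.1%, the 95% interval of the fold change lay within a factor of 2 in either direction.

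**Figure D1:**
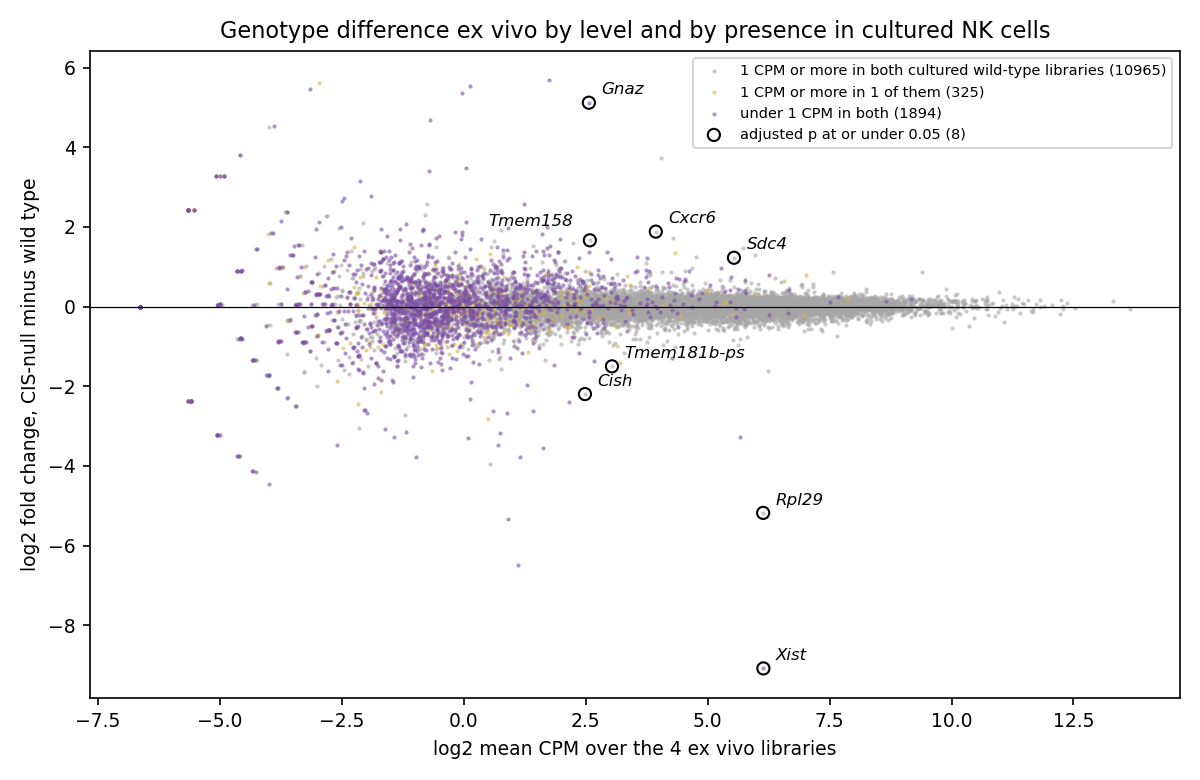
Log2 fold change, CIS-/- (CIS-null) minus wild type ex vivo, against log2 mean CPM of the 4 ex vivo libraries, with 1 point per tested gene, coloured by its level in the wild-type cultured libraries, and the 8 genes past an adjusted p of 0.05 circled and named. Genes at 1 CPM or more in culture (10965, grey) lie close to 0, and those under 1 CPM (1894, purple) lie at low levels and scatter more widely.

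Of the 4 genes called higher in CIS-/- cells, Cxcr6 and Sdc4 encode cell surface proteins. Cxcr6, the receptor for the chemokine CXCL16 and a marker of tissue-resident lymphocytes, was at 6.02 and 7.03 CPM in wild type and 22.7 and 25.4 CPM in CIS-/- cells. The lowest CIS-/- value lay well above the highest wild-type value. The fold change was 3.68 (log2 1.88, SE 0.216, edgeR adjusted p 0.0315). Sdc4, the heparan sulphate proteoglycan syndecan-4, was at 25.7 and 29.96 CPM in wild type and 67.5 and 62.7 CPM in CIS-/- libraries. The 2 groups did not overlap and the fold change was 2.34 (log2 1.23, SE 0.136, edgeR adjusted p 0.0315).

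Among the genes called higher, Gnaz rose most by fold. It encodes the alpha subunit of Gz, a G protein that inhibits adenylyl cyclase. Wild-type libraries held 0.29 and 0.36 CPM, from 7 and 9 reads, and CIS-/- libraries 11.8 and 11.1 CPM, from 257 and 282 reads. The groups were far apart, and both CIS-/- libraries were alike. The difference was 5.12 on the log2 scale (SE 0.309, edgeR adjusted p 0.000433). In all 4 in vitro libraries Gnaz was at 0.04 CPM or less, so culture gives no second reading of its genotype difference. Tmem158, which encodes a membrane protein induced by Ras signalling, was at 2.78 and 2.96 CPM in wild type and 8.11 and 10.1 CPM in CIS-/- cells. Its groups did not overlap. On the log2 scale the difference was 1.66 (SE 0.205, edgeR adjusted p 0.0468).

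Rpl29, Tmem181b-ps and Xist fell alongside Cish. Rpl29, which encodes a ribosomal protein, dropped from 141.8 and 131.8 CPM to 4.28 and 3.30 CPM. It lies 0.865 Mb from Cish, and was likewise low in CIS-/- cells in vitro, at 2.004 and 1.96 CPM against 255 and 137 CPM in wild type. The difference ex vivo was -5.18 on the log2 scale (SE 0.313, edgeR adjusted p 0.000433). Ribosomal protein genes have many near-identical pseudogenes, so reads of Rpl29 may have been split or dropped in counting. The part of this in its genotype difference was not tested. Tmem181b-ps, on chromosome 17, is annotated as a pseudogene with close relatives, and the same holds for it. It stood at 12.03 and 12.2 CPM in wild type and 3.73 and 4.80 CPM in CIS-/- cells (log2 -1.50, SE 0.163, edgeR adjusted p 0.0315). In vitro its levels were alike, at 13.4 and 12.3 CPM in wild type and 4.47 and 4.12 CPM in CIS-/- cells.

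Xist, the RNA that silences one X chromosome in female cells, was at 119.6 and 162.1 CPM in wild type and 0.32 and 0.20 CPM in CIS-/- libraries (log2 -9.08, SE 0.363, edgeR adjusted p 4.24e-05). Transcripts of Y-linked genes were present in all 4 libraries, and none passed the test between the genotypes, with edgeR adjusted p of 0.0713 for Eif2s3y, 0.0748 for Uty, 0.187 for Kdm5d and 0.281 for Ddx3y. Eif2s3y was at 34.1 and 21.7 CPM in wild type and 84.9 and 70.4 CPM in CIS-/- libraries. Uty was at 11.2 and 7.06 CPM against 33.8 and 26.5 CPM. The wild-type ex vivo libraries thus held transcripts of both kinds, whereas the CIS-/- ones held almost no Xist. In these libraries, genotype and the sex of the cells cannot be told apart for a gene that both could move. With all X and Y genes left out, edgeR called 3 genes higher and 3 lower, and of the 7 genes other than Xist only Tmem158 was lost (adjusted p 0.0534). This leaves the counts of the remaining genes as they were, so it does not separate genotype from sex.

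**Figure D2:**
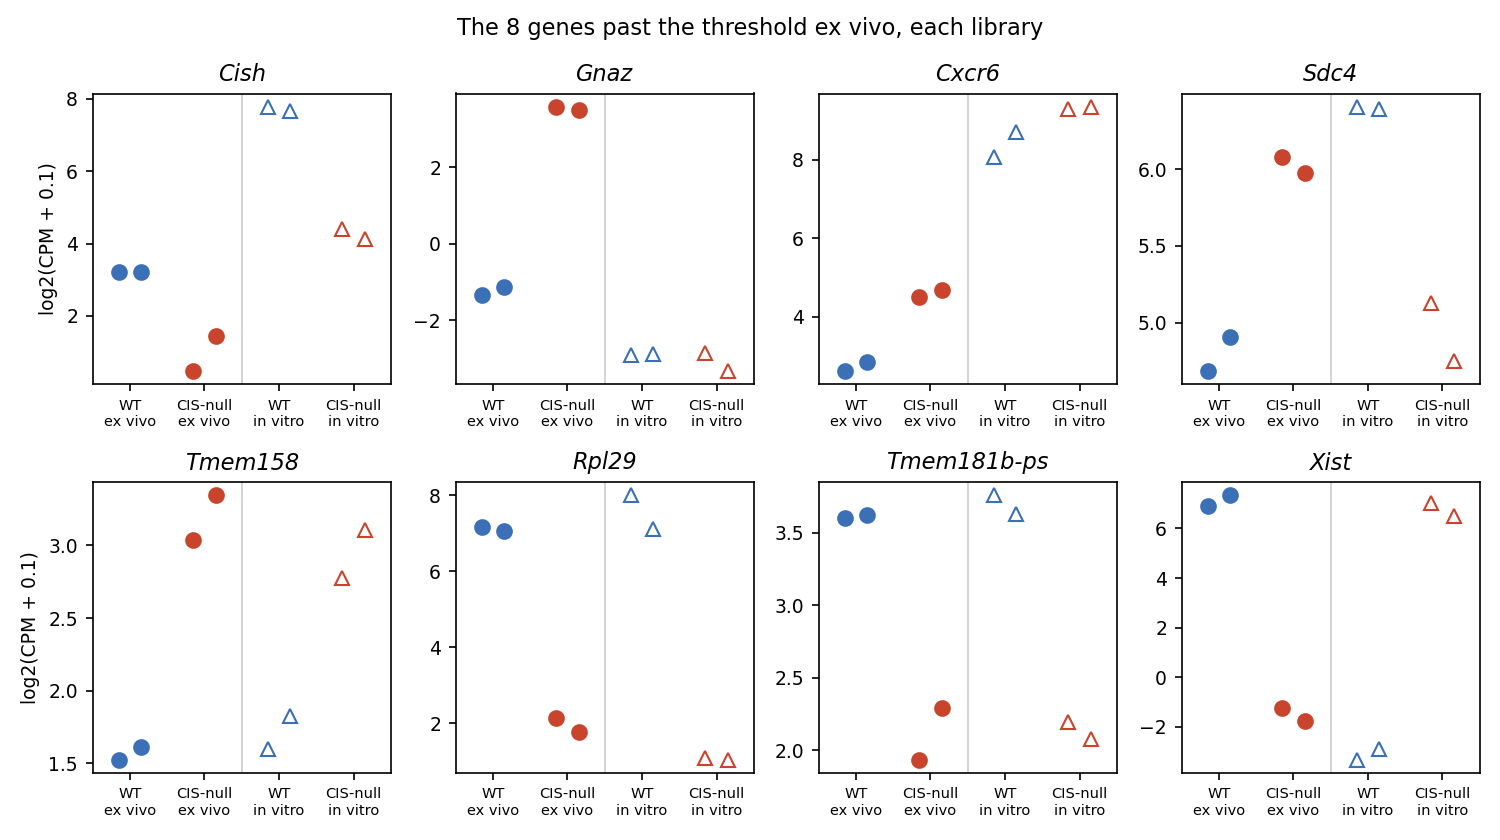
Log2(CPM + 0.1) of the 8 genes past an adjusted p of 0.05, with 1 point per library (filled circles ex vivo, open triangles in vitro; blue wild type, red CIS-/-, written CIS-null). Cish, Cxcr6, Tmem158, Rpl29 and Tmem181b-ps differ between genotypes in the same direction ex vivo and in vitro, Sdc4 and Xist in opposite directions, and Gnaz is near 0 CPM in vitro.

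The 8 calls were not equally firm. Gnaz, Rpl29 and Xist passed in every alternative that tested them, 22, 22 and 20 in number, including each fit without 1 library. Without wild-type ex vivo replicate 1, the adjusted p by edgeR was 0.283 for Cish, 0.411 for Cxcr6, 0.411 for Sdc4, 0.483 for Tmem158 and 0.242 for Tmem181b-ps. Without wild-type replicate 2 it was 0.299 for all of these but Tmem158, at 0.324. Fitted on the 4 ex vivo libraries alone, edgeR kept 4 of the 8 calls, Xist, Rpl29, Gnaz and Cxcr6, and gave an adjusted p of 0.242 for Cish, 0.171 for Tmem158 and Tmem181b-ps and 0.0602 for Sdc4. The fold changes kept their direction over the alternatives. Log2 values ranged from 1.78 to 1.999 for Cxcr6, from 1.12 to 1.34 for Sdc4 and from 1.498 to 1.81 for Tmem158. Those of Tmem181b-ps ranged from -1.70 to -1.34. Cish moved most of these genes, from -2.83 without CIS-/- replicate 2 to -1.80 without CIS-/- replicate 1. Leaving out CIS-/- replicate 1 took Cxcr6 and Tmem181b-ps to 0.0531 and Sdc4 to 0.0558, and leaving out CIS-/- replicate 2 took Tmem158 to 0.0508. Since the spread is shared over 8 libraries, leaving out an in vitro library also moved Cish (0.0634 to 0.11), Tmem158 (0.0734 to 0.114) and Tmem181b-ps (0.0556 to 0.11), while Sdc4 was lost without a wild-type one (0.0634 and 0.0734) and Cxcr6 without a CIS-/- one (0.144 and 0.145).

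The genotype difference could also be set beside the one in cultured cells, which are separate libraries. Cxcr6 was at 269 and 417 CPM in wild-type and 629 and 651 CPM in CIS-/- cultured cells, a difference of 0.90 on the log2 scale. That difference was in the ex vivo direction, at an expression level far above that of fresh cells. Sdc4 differed the other way, with 84.6 and 83.7 CPM in wild type and 34.9 and 26.9 CPM in CIS-/- (log2 -1.45). The test of its difference between ex vivo and in vitro gave an adjusted p of 0.000915 by edgeR. Xist changed order between the states too, at 0 and 0.04 CPM in wild-type and 130.7 and 89.7 CPM in CIS-/- cultured libraries. For the reversal of Sdc4, culture and the sex of the cells therefore cannot be told apart.

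Several of these genes lie near Cish itself, at positions taken from the RefSeq table of build GRCm38.p6. Within 20 Mb of Cish, 270 genes were tested; 4 of them were called and 17.4% had an unadjusted p under 0.05, with 26 higher and 21 lower in CIS-/- cells. On the rest of chromosome 9, none of 436 genes was called by edgeR and 7.11% had such a p. On the other chromosomes it was 6.14% of 12478 genes, of which 4 were called. Cxcr6 starts 16.5 Mb and Tmem158 16.0 Mb to the right of Cish. The labels do not give the strain in which the CIS allele was made, so DNA carried along with the allele and loss of CIS cannot be told apart for genes in this stretch. With these genes left out, an alternative added after the data were seen, the calls were Gnaz, Sdc4, Xist and Tmem181b-ps.

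**Figure D3:**
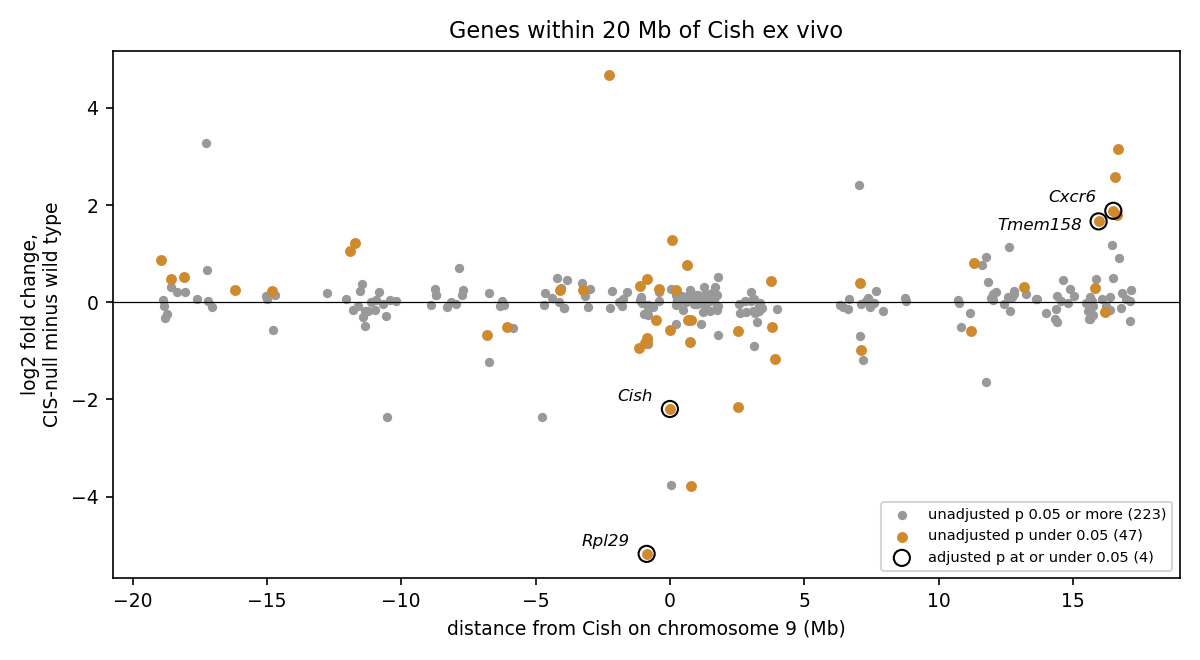
Log2 fold change, CIS-/- (CIS-null) minus wild type ex vivo, of the 270 tested genes within 20 Mb of Cish against their distance from it in Mb, with 1 point per gene, orange for an unadjusted p under 0.05 and rings around the 4 called genes. The 47 orange genes, 26 higher and 21 lower, lie across the whole stretch and include a group beside Cish and one around Cxcr6.

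Cxcr6 sits in a cluster of chemokine receptor genes, whose other members were looked at after their values had been seen. Xcr1, the receptor for XCL1, was at 0.13 and 0.20 CPM in wild type and 0.97 and 1.02 CPM in CIS-/- cells. Ccr1 was at 0.42 and 0.43 CPM against 2.26 and 0.75 CPM, and Ccr3 at 9.76 and 6.51 CPM against 19.5 and 10.9 CPM. These 3 genes were higher in both CIS-/- libraries, but none passed the adjusted test. An abundant member of the cluster, Ccr2, the receptor for CCL2, was at 1050 and 984 CPM in wild type and 1070 and 792 CPM in CIS-/- cells (log2 -0.13), and overlapped.

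How closely the difference was bounded varied between the NK gene programmes. The share of genes with a 95% interval within 2-fold, 78.1% over all genes, was reached or passed by the lineage, maturation, granule, activating receptor, transcription factor, cytokine receptor, SOCS, STAT5 target and cell cycle lists, but was lower for cytokines and chemokines (7 of 12), markers of tissue-resident lymphocytes (8 of 13), trafficking genes (14 of 19), inhibitory receptors (14 of 18), immediate early genes (16 of 22) and interferon-stimulated genes (21 of 29). Of 15 tested genes of the NK lineage list, none was called and none had an unadjusted p under 0.05. All 15 had a 95% interval within 2-fold, and the median log2 fold change was 0.085, beside 0.02 over all genes. Ncr1, the activating receptor NKp46 of NK cells, was at 1690 and 1801 CPM in wild type and 1788 and 1884 CPM in CIS-/- libraries. The groups overlapped, and the log2 fold change was 0.07 with an interval from -0.18 to 0.33. Eomes, a transcription factor that sets NK cells apart from other innate lymphocytes, was at 736 and 662 CPM against 616 and 590 CPM (log2 -0.21, interval -0.46 to 0.03). Transcripts typical of the labelled cell type were therefore present in each library.

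Genes of the killing machinery had small fold changes, more of them higher than lower in CIS-/- cells. All 20 genes of the list of cytotoxic granule genes and death ligands had intervals within 2-fold, and the median was 0.10. The groups did not overlap for 12 higher and 2 lower of them, where 22% and 18.4% of all genes did so. Gzma, granzyme A and one of the most abundant transcripts, was at 9596 and 9765 CPM in wild type and 11474 and 9993 CPM in CIS-/- cells (log2 0.15, interval -0.19 to 0.49). Prf1, the pore-forming perforin, was at 2332 and 2374 CPM against 2300 and 2631 CPM (log2 0.07, interval -0.19 to 0.33). Gzmb, granzyme B, was at 875 and 1034 CPM against 986 and 1006 CPM (log2 0.06, interval -0.20 to 0.32). Prf1 and Gzmb overlapped between the genotypes, and Gzma did not. At an unadjusted p under 0.05 were Lamp1 (log2 0.27), Srgn (0.26) and Gzmm (0.41), all slightly higher in CIS-/- cells and none past adjustment by edgeR, where the smallest adjusted p of the 3 was 0.714. On a scale corrected for gene length (RPKM, CPM per kilobase), Gzma stood above all other tested genes, with a mean of 11625, against 9350 for Ccl5 and 3430 for Nkg7.

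In the pathway that CIS acts on, no gene but Cish itself was called. The list of interleukin 2, 15, 12 and 18 receptors with JAK, STAT and phosphatase genes had 24 tested members, 23 of them with intervals within 2-fold, and a median of -0.02. Il2rb, the receptor chain shared by interleukins 2 and 15, was at 4230 and 4213 CPM in wild type and 4041 and 4617 CPM in CIS-/- cells (log2 0.04, interval -0.22 to 0.30). Jak1, the kinase that CIS restrains, was at 2470 and 2389 CPM against 2275 and 2562 CPM (log2 -0.01, interval -0.30 to 0.29). Il21r, the receptor for interleukin 21, had the only unadjusted p under 0.05 in this list, at 29.8 and 36.6 CPM against 39.7 and 49.8 CPM (edgeR adjusted p 0.737).

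Among 8 tested SOCS family genes only Cish was called, and the median was -0.07. Socs1, Socs2 and Socs3, the other inhibitors that STAT proteins induce, all overlapped between the genotypes: Socs1, for example, was at 20.7 and 22.2 CPM against 16.3 and 22.1 CPM. Of 17 tested STAT5 target genes, Cish alone had an unadjusted p under 0.05, and the median was 0.04. Pim1, a kinase gene that STAT5 induces, was at 291 and 279 CPM in wild type and 227 and 322 CPM in CIS-/- cells, and Bcl2, a survival gene of the same pathway, at 192 and 203 CPM against 189 and 170 CPM. Neither passed the test; their log2 intervals ran from -0.46 to 0.35 for Pim1 and from -0.43 to 0.16 for Bcl2. Messenger RNA levels do not report the phosphorylation of JAK1 or STAT5, which was not measured.

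Receptors and transcription factors gave small values too. None of 20 activating receptor and adaptor genes had an unadjusted p under 0.05, with 18 intervals within 2-fold and a median of 0.11. One of 18 inhibitory receptor genes did, Klra5 (Ly49E, log2 0.33), with a median of 0.03. Of 20 transcription factor genes, all had intervals within 2-fold and the median was -0.07. Ahr, the aryl hydrocarbon receptor, was at 9.05 and 9.95 CPM in wild type and 7.23 and 7.08 CPM in CIS-/- cells (log2 -0.41, edgeR adjusted p 0.654).

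**Figure D4:**
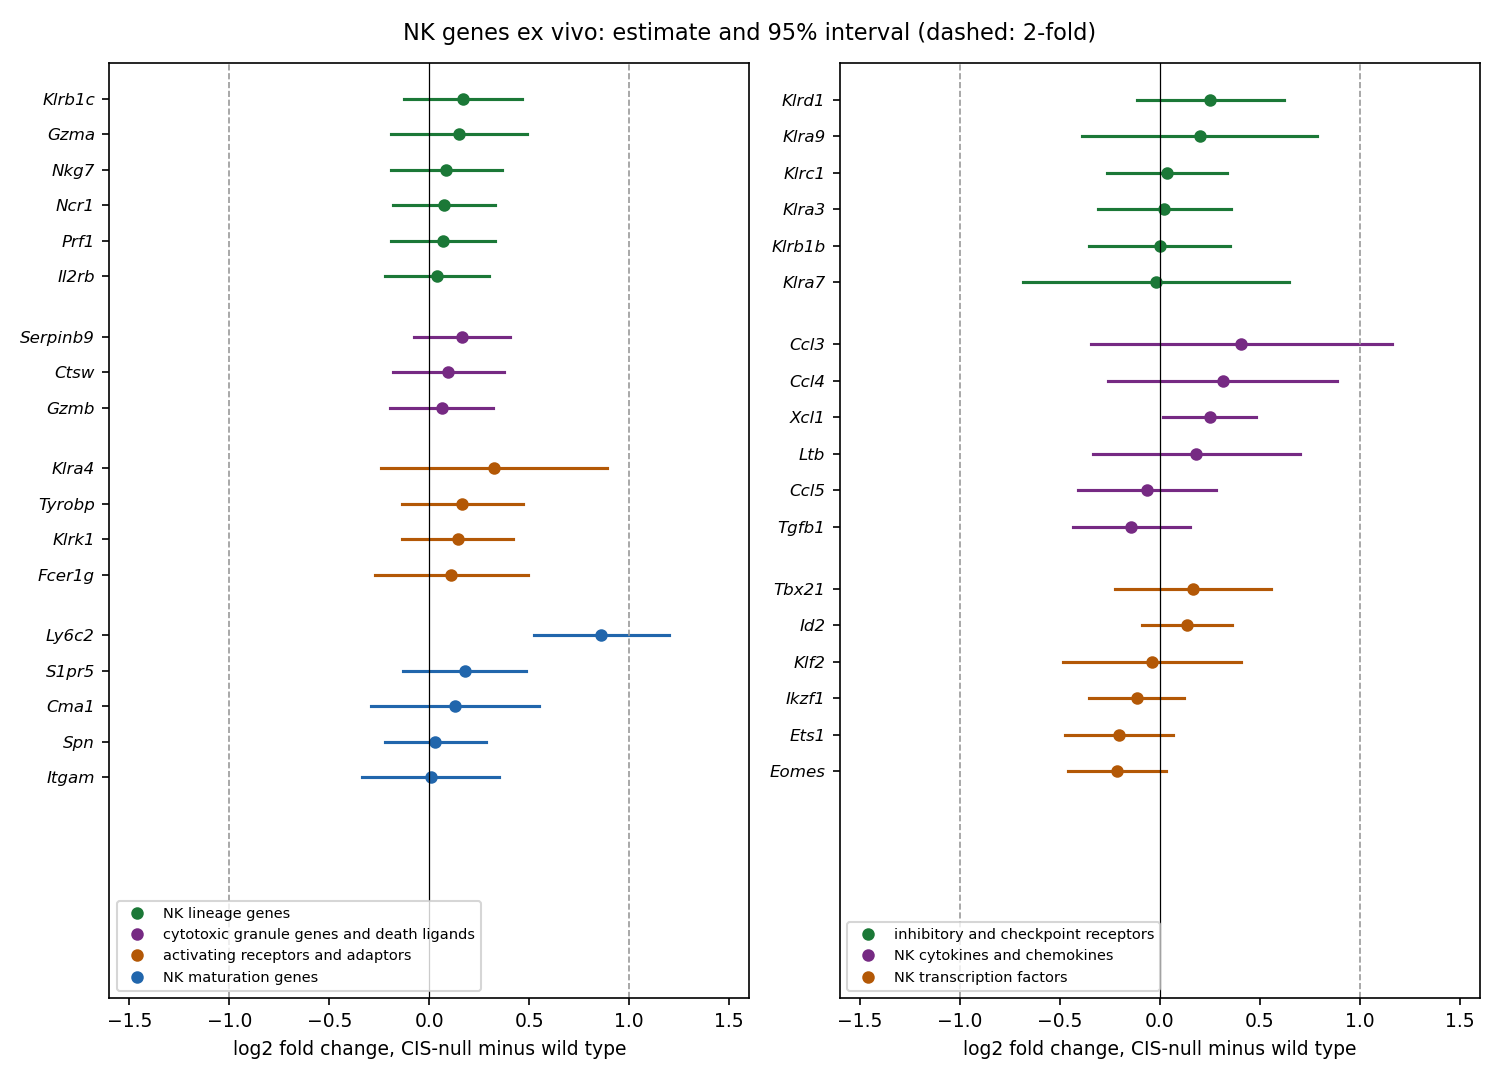
Log2 fold change, CIS-/- (CIS-null) minus wild type ex vivo, with its 95% interval (bars) for abundant genes of 7 NK lists; each point is 1 gene, and dashed lines mark 2-fold in either direction. All intervals lie within the dashed lines except those of Ly6c2 and Ccl3.

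Other genes bore on maturation, cytokines and homing. Ly6c2, a surface antigen of mature NK cells, was at 444 and 507 CPM in wild type and 814 and 914 CPM in CIS-/- cells. Every CIS-/- value was above every wild-type value (log2 0.86, interval 0.52 to 1.20), but the adjusted p by edgeR was 0.176. Cultured cells differed in the same direction (log2 1.97). Of the other maturation genes, Itgam (CD11b) and Cd27 had log2 fold changes of 0.01 and -0.04, and Klrg1 was at 253 and 257 CPM against 309 and 386 CPM (log2 0.45). The list of 13 maturation genes had a median of 0.11. Ifng was at 58.8 and 53.1 CPM against 48.5 and 61.5 CPM, and Ccl3 at 91.1 and 79.3 CPM against 74.75 and 151 CPM. Both overlapped, and the interval for Ccl3 (-0.35 to 1.16) reaches past 2-fold. Of 13 genes that mark type 1 innate lymphoid cells and tissue-resident lymphocytes, Cxcr6 was called and the median was 0.14. Itga1 (CD49a), another member of that list, was at 5.81 and 9.16 CPM against 5.39 and 13.7 CPM and overlapped. Of 19 trafficking genes only Cxcr6 had an unadjusted p under 0.05, and the median was 0.11.

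To separate signal of NK cells from that of other cells, genes were also split by their level in cultured wild-type NK cells. Of the tested genes, 10965 stood at 1 CPM or more in both wild-type in vitro libraries; they took 99.3% of the wild-type ex vivo CPM. Among them edgeR called 3 higher (Cxcr6, Sdc4 and Tmem158) and 3 lower (Cish, Rpl29 and Tmem181b-ps), and 6.15% had an unadjusted p under 0.05. Another 1894 genes were under 1 CPM in both; 1 was called higher (Gnaz), 1 lower (Xist), and 8.13% had such a p. The genes not kept in culture had a median of 0.645 CPM against 32.9 CPM for the kept ones, and differed more: 16.2% had a fold change of 2 or more, against 0.985% of the kept genes. Their median absolute log2 fold change was 0.437 with a median SE of 0.508, against 0.120 and 0.133, so in both classes it was smaller than its error. Loss in culture is not proof of another source: S1pr5, an egress receptor of NK cells, was at 533 and 539 CPM in wild type and 528 and 684 CPM in CIS-/- fresh cells and is among the genes under 1 CPM in culture. With the fit restricted to the kept genes, the same 6 were called beside 1 predicted gene (Gm17669). With the listed genes of other cell types left out, all 8 were, beside Gm17669 and Ptprv. Both refits only leave out genes and keep the counts of the rest, so they do not bear on the source of a transcript.

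Behind the called genes stood a group that was kept in culture but did not pass. Its members were chosen by p value among genes that did not overlap between the genotypes. The next 12 higher genes had edgeR adjusted p from 0.0713 to 0.424, and the next 12 lower ones from 0.0748 to 0.378. Of the lower ones, 8 lie on chromosome 9 and 7 of these within 20 Mb of Cish; of the higher ones, 1 does, and 4 lie on the Y chromosome. Mapkapk3, a kinase downstream of p38 that is the neighbour of Cish, was at 47.7 and 47.4 CPM in wild type and 32.1 and 31.6 CPM in CIS-/- cells (log2 -0.58). Dusp7, a phosphatase of ERK, was at 55.5 and 62.9 CPM against 29.1 and 36.6 CPM, and Rnf123, a ubiquitin ligase, at 67.7 and 61.1 CPM against 33.5 and 39.3 CPM. Glb1, a lysosomal galactosidase, was at 67.2 and 62.9 CPM against 38.55 and 27.8 CPM. Their lack of overlap was a condition of the choice and is no separate result.

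Away from chromosome 9 and the sex chromosomes, 2 lower genes stood out by their p. Wdfy1, an endosomal adaptor, was at 27.8 and 22.3 CPM in wild type and 9.53 and 13.2 CPM in CIS-/- cells (log2 -1.13, edgeR adjusted p 0.0983). Pitpnm2, a phosphatidylinositol transfer protein, was at 23.1 and 21.8 CPM against 10.4 and 12.5 CPM (log2 -0.97, edgeR adjusted p 0.139). Cultured cells showed a larger difference for Wdfy1 (log2 -2.81) and a smaller one for Pitpnm2 (-0.27). Of higher genes, Tnfsf4, the ligand of OX40, was at 0.84 and 0.63 CPM against 2.26 and 2.36 CPM (edgeR adjusted p 0.0748), and Rgs18, a regulator of G protein signalling, at 9.47 and 10.97 CPM against 18.01 and 17.6 CPM (edgeR adjusted p 0.203). Of these 24 genes, 14 of 23 alternatives called none, DESeq2 called 21 and no other alternative more than 7.

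Transcripts of other cell types were present in every ex vivo library at low levels, and those of B and plasma cells were far apart between the CIS-/- replicates. In bulk RNA, fewer cells of a type and less RNA per cell cannot be told apart. The defining B cell markers summed to 21.3 and 18.7 CPM in wild type and to 56.6 and 12.5 CPM in CIS-/- replicates 1 and 2, a ratio of 4.51 between the replicates. Ms4a1 (CD20) was at 4.80 and 3.67 CPM in wild type and 20.9 and 1.30 CPM in CIS-/- libraries. Plasma cell markers summed to 75.4 and 35.4 CPM against 99.0 and 8.03 CPM. For both types the CIS-/- values lay on either side of the wild-type values, so neither sum showed a genotype difference beyond the spread. Single antibody genes went apart: Ighg3 was at 0.08 and 0 CPM in wild type, from 2 and 0 reads, and at 1.93 and 2.28 CPM in CIS-/- libraries (edgeR adjusted p 0.0748), whereas Igha was at 148 and 35.8 CPM against 19.3 and 0.20 CPM (edgeR adjusted p 0.714). Ighg3 passed in 4 of the alternatives, the lowest adjusted p being 0.00346 by DESeq2. The median of the 17 tested B cell genes was 0.82, but without CIS-/- replicate 1 it was -1.15.

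Basophil and mast cell markers had higher sums in both CIS-/- libraries, though none of the genes passed adjustment. The defining markers summed to 6.06 and 5.96 CPM in wild type and to 27.4 and 12.3 CPM in CIS-/- replicates 1 and 2. Fcer1a, the alpha chain of the high-affinity IgE receptor, was at 0.67 CPM in both wild-type libraries and at 5.71 and 2.36 CPM in CIS-/- libraries (log2 2.57, edgeR adjusted p 0.447). Mcpt8, the basophil protease, was at 0.59 and 0.79 CPM against 3.45 and 1.89 CPM (log2 1.92, edgeR adjusted p 0.472). Hdc, which makes histamine, was at 2.65 and 1.58 CPM against 7.97 and 2.95 CPM.

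Of 16 tested genes of the basophil and mast cell list, none was called by edgeR, 12 had an unadjusted p under 0.05, all higher in CIS-/- cells, and for 13 the groups did not overlap, also all higher. Over all genes those shares were 3.08% and 22%. The list's median log2 fold change was 1.26, with 0.80 without CIS-/- replicate 1 and 1.58 without CIS-/- replicate 2; over its few members at 5 CPM or more in 2 libraries it was 0.27. Of this list, Kit, Cma1, Csf1 and Osm also stand in NK lists, and Itga2b and Gata2 in lists of other cell types. Per length these transcripts were scarce: the mean RPKM of Fcer1a was 2.29 against 1224 for Ncr1. In cultured cells Fcer1a, Ms4a2 and Prss34 were at or near 0. In wild-type culture Mcpt8 was at 12.4 and 15.4 CPM, Cpa3 at 14.4 and 18.9 CPM and Cd200r3 at 1.43 and 2.53 CPM. Mcpt8, Cpa3 and Cd200r3 are thus not markers of cells lost in culture, yet they count in the defining sums. Cpa3 was the highest defining marker in each ex vivo library, at 2.90 and 2.21 CPM in wild type and 7.65 and 3.78 CPM in CIS-/- cells. The part of these cells in the genotype difference of other genes was not tested.

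**Figure D5:**
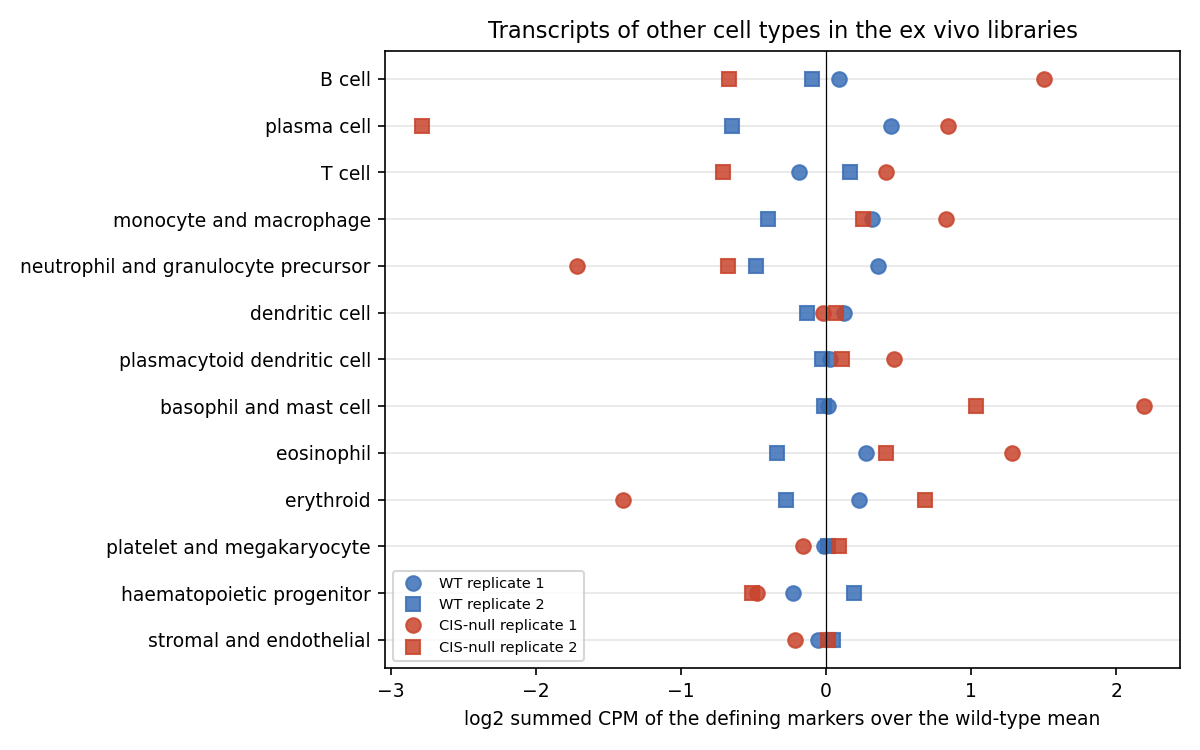
Summed CPM of the defining markers of 13 other cell types in each ex vivo library, as log2 of its ratio to the wild-type mean, with 1 point per library (blue wild type, red CIS-/-, written CIS-null; circles replicate 1, squares replicate 2). For B and plasma cells the CIS-/- replicates lie at opposite ends, whereas basophil and mast cell markers are higher in both CIS-/- libraries (27.4 and 12.3 CPM) than in wild type (6.06 and 5.96 CPM).

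Myeloid transcripts gave a mixed picture. The defining monocyte and macrophage markers summed to 108 and 65.8 CPM in wild type and 154 and 104 CPM in CIS-/- cells, and overlapped. Of 21 tested genes of the whole list, 4 higher and 1 lower had an unadjusted p under 0.05 by edgeR. Over all genes those shares were 3.08% and 3.32%. The higher ones were Cd163, Vcam1, Hmox1 and C1qb, and the lower one was Lyz2. The list's median log2 fold change was 0.54 and ran from 0.09 to 0.85 over the alternatives. Cd163, a haemoglobin scavenger receptor of red pulp macrophages, was at 9.05 and 7.06 CPM against 16.5 and 12.98 CPM (log2 0.87), and Vcam1, an adhesion molecule of the same cells, at 49.4 and 35.0 CPM against 82.9 and 50.2 CPM (log2 0.66). Lyz2, lysozyme, was at 31.9 and 23.1 CPM against 8.24 and 14.0 CPM (log2 -1.30). Fn1 and Chil3, which monocytes and macrophages express, are not on the list. They were chosen by p value among lower genes without overlap between the genotypes. Fn1 was at 5.64 and 3.59 CPM against 0.28 and 1.18 CPM, and Chil3 at 2.44 and 1.38 CPM against 0.14 and 0.24 CPM. None of Cd163, Vcam1, Lyz2, Fn1 and Chil3 passed adjustment by edgeR, with adjusted p from 0.281 for Chil3 to 0.737 for Vcam1. Defining neutrophil markers summed to 8.54 and 4.78 CPM in wild type and 2.03 and 4.17 CPM in CIS-/- cells, without overlap. The median log2 fold change of the neutrophil list was -1.04, and ran from -1.95 to 0.81 over the alternatives.

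The remaining sources were low in sum or spread over the genotypes. Defining T cell markers summed to 30.6 and 39.0 CPM in wild type and 46.4 and 21.3 CPM in CIS-/- cells, and platelet markers to 33.4 and 33.9 CPM against 30.2 and 35.8 CPM, most of it Itgb3. Dendritic cell markers summed to 5.13 and 4.30 CPM against 4.65 and 4.96 CPM. Plasmacytoid dendritic cell markers summed to 5.47 and 5.25 CPM against 7.41 and 5.78 CPM, without overlap. Those of haematopoietic progenitors summed to 3.83 and 5.13 CPM against 3.22 and 3.15 CPM, also without overlap. Erythroid markers ran from 3.78 to 16.0 CPM, with both ends in CIS-/- libraries. The collagen genes Col1a1 and Col3a1, which define stromal cells, were at 0 in the ex vivo libraries, so the stromal sum of 98.5 to 118 CPM was nearly all Pecam1, which leukocytes also express. The eosinophil sum, at 10.2 and 6.71 CPM in wild type and 20.5 and 11.3 CPM in CIS-/- cells, was mostly Ccr3, which lies in the chemokine receptor cluster beside Cxcr6.

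Between CIS-/- replicates 1 and 2, defining B cell markers had a ratio of 4.51 and basophil and mast cell markers one of 2.23. Over all other cell types the ratio ran from 0.24 for erythroid to 12.3 for plasma cell markers. Monocyte and macrophage markers had 1.48 and platelet markers 0.84, within the range of the called genes. The called genes had ratios of 1.64 for Xist, 1.30 for Rpl29, 1.08 for Sdc4, 1.07 for Gnaz, 0.89 for Cxcr6, 0.80 for Tmem158, 0.78 for Tmem181b-ps and 0.49 for Cish. The part of other cell types in these 8 differences was not tested.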

How the data were processed

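RNA was sequenced from 8 libraries of mouse NK cells. The authors deposited a table of raw counts per gene, made with Subread and featureCounts per the submitters' processing notes, which also name builds GRCm38 and mm10 and the tool limma; strand and multi-mapping settings are not given in the sources used here. They also deposited files of log2 RPKM with 12372 genes, used only as an alternative; with gene length taken out, their sorted values nearly coincide over the libraries.

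Counts were fitted here with edgeR 4.0.16 in R 4.3.3: TMM scaling, filterByExpr by group (minimum count 10, total 15), glmQLFit on all 8 libraries with 1 mean per group, and glmQLFTest of ex vivo CIS-/- minus ex vivo wild type, with Benjamini-Hochberg adjustment over the 13184 tested genes and a threshold of 0.05. SE is the log2 fold change divided by the root of the F statistic, and 95% intervals use the t distribution with the fit's total degrees of freedom. All 8 libraries were used because 2 a group alone leave few degrees of freedom. CPM use TMM-scaled library sizes and RPKM add the gene length of the table. limma 3.58.1 and DESeq2 1.42.0 served as alternatives. The fit was tested on simulated data.

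Named were Cish; all called genes with a symbol; per direction the next 12 by p with at least 5 CPM in both wild-type in vitro libraries and the next 6 under 1 CPM there, without overlap between genotypes; up to 6 abundant members of each NK list; defining markers of other cell types; and list members at an unadjusted p under 0.05. Members and lists were chosen with earlier results of these data known. RefSeq positions matched 97.5% of tested genes, and 565 genes without a symbol were named by number. A few genes of the lists are not reported here.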

Additional observations from a re-analysis of the deposited data

Results flagged for a closer look

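For 7 named genes the genotype difference ex vivo differed from that in vitro by edgeR's test of the difference itself, with Benjamini-Hochberg adjustment over all genes. Sdc4 was higher in CIS-/- cells ex vivo (log2 1.23) and lower in vitro (-1.45), with an adjusted p of 0.000915 for the difference. Lrrfip2, on chromosome 9 within 20 Mb of Cish, was at 64.8 and 64.0 CPM in wild type and 44.4 and 45.3 CPM in CIS-/- cells ex vivo (log2 -0.52) but had a log2 value of 0.59 in vitro, and the edgeR adjusted p was 0.0345.

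The other 5 are genes of the sex chromosomes: Xist (edgeR adjusted p of the difference 2.11e-06), Eif2s3y (1.4e-05), Uty (9.54e-05), Kdm5d (6.52e-05) and Ddx3y (9.54e-05). In vitro, Xist was at 0 and 0.04 CPM in wild type and 130.7 and 89.7 CPM in CIS-/- libraries, the reverse of the ex vivo order. With counts at or near 0 on one side, the fitted size of these differences has no bound and is not given. For Sdc4 and Lrrfip2, whose genotype difference also changed direction, culture and the sex of the cells cannot be told apart.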

How the results depend on the processing

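None of 23 alternatives reversed a called gene. The main counts of 4 higher and 4 lower genes became 10 and 13 without the low-count filter, 22 and 23 with DESeq2, 8 and 11 with the gene length trend removed, and 9 and 18 with other cell types' summed markers as a covariate. Without genes within 20 Mb of Cish, chosen after seeing the data, they were 2 and 2. The ex vivo libraries alone gave 2 lower genes and kept 4 of the 8 calls. Leaving out 1 library gave 1 to 22 higher and 2 to 19 lower genes; the highest of both came without CIS-/- ex vivo replicate 2. Replicate numbers in the labels are only numbers: deviations of same-numbered ex vivo libraries correlated at 0.146, and the replicate block gave 2 lower genes, with 5 of the 8 calls kept. By limma-voom 5 of the 8 calls were kept, with an adjusted p of 0.0629 for Cish, and by limma on log2 RPKM 5 of 7 tested. Of 28 list medians, 17 changed sign in at least 1 alternative, among them B cell markers without CIS-/- replicate 1 (-1.15) and with the covariate (-0.33), and cell cycle genes without CIS-/- replicate 1 (0.16); those of NK lineage, granule, interferon-stimulated and basophil and mast cell genes did not. The covariate sums markers that cultured NK cells also hold, such as Itgb3, Cd3g and Pecam1, so calls that pass with it do not bear on the source of a transcript.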

Other observations

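Interferon-stimulated genes, which type I interferon induces, had no member past adjustment by edgeR. Of 29 tested, 7 had an unadjusted p under 0.05, all lower in CIS-/- cells, where 3.32% of all genes were. The groups did not overlap for 14 lower and 3 higher genes, where 18.4% and 22% of all genes did so. The median log2 fold change was -0.16, and stayed between -0.18 and -0.11 in the alternatives. Oas3, which makes the second messenger of RNase L, was at 22.85 and 24.2 CPM in wild type and 16.4 and 15.4 CPM in CIS-/- cells. Rsad2, viperin, was at 4.21 and 3.59 CPM against 2.26 and 1.53 CPM, and Oasl1 at 6.52 and 6.75 CPM against 3.96 and 3.78 CPM. The groups of these 3 genes did not overlap. Isg15 was at 8.42 and 10.8 CPM against 8.61 and 9.68 CPM and overlapped.

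Some cell cycle and immediate early genes were low in 1 library. Mki67, a marker of dividing cells, was at 24.7 and 29.4 CPM in wild type and 6.13 and 20.4 CPM in CIS-/- replicates 1 and 2. Both CIS-/- values of Mki67 lay below both wild-type ones (log2 -1.01, edgeR adjusted p 0.766). In vitro it was lower in CIS-/- cells too (log2 -2.15). Top2a was at 59.6 and 64.5 CPM against 27.1 and 67.9 CPM, and Fos at 96.4 and 61.0 CPM against 16.3 and 101.2 CPM. CIS-/- replicate 1 was the lowest library for these 3, which were chosen after their values were seen; for Pcna, at 92.1 and 88.9 CPM against 103 and 107 CPM, and Klf6, at 323 and 306 CPM against 326 and 341 CPM, it was not. That replicate was also the one with the most B cell transcripts; the part of either in the other was not tested.

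Immunoglobulin segments summed to 846 and 536 CPM in wild type and to 1135 and 287 CPM in CIS-/- libraries, with both extremes in CIS-/-. Tle1 and Nrp2 are among the genes under 1 CPM in culture. Tle1, a transcriptional corepressor, was at 4.502 and 5.37 CPM in wild type and 10.5 and 12.1 CPM in CIS-/- cells. Its log2 fold change was 1.19 (edgeR adjusted p 0.124). Nrp2, a semaphorin receptor, was at 6.14 and 8.13 CPM against 3.59 and 2.75 CPM (log2 -1.17, edgeR adjusted p 0.504). Both were chosen by p value among genes without overlap between the genotypes, so their lack of overlap is no separate result.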
